A study of Hypsibius dujardini with 126 samples.

Results

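Early and late embryos of the tardigrade Hypsibius dujardini, a microscopic water bear kept in laboratory culture, were compared within a single run of embryo numbers. The early group was 8 single embryos of 10 to 18 h (embryos 9-16) and the late group 5 single embryos of 85 to 98 h (embryos 20 and 22-25), 13 of the 126 embryos of a developmental time course. They were chosen by embryo number and label time, and by a depth of at least 63405 transcript counts, which is 10% of the median over all 126 embryos. The lowest totals among the 13 were 200536 counts in embryo 24 and 250397 in embryo 11. Embryo 21, of 86 h, lies within the late hours but had 57556 counts, just below that minimum, with 59.9% of them on 1 transcript. Embryos 17, 18 and 19, of 80 to 83 h, are younger than the late group. Embryos 1-25 are the only consecutive stretch of embryo numbers with embryos from both ends of development. The labels name no batches, so this stretch is called a run only from its numbers and label times.

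All 13 embryos were untreated animals from the same laboratory cultures as far as the labels tell. The labels give no strain and do not say which embryos share a mother, so siblings may be among them. A p-value here reflects variation between single embryos only. Within a group each embryo has its own label hour, so that variation includes age and library quality. Polyadenylated RNA of each whole embryo was read by CEL-Seq, which barcodes each sample at the 3′ end of its transcripts and amplifies it by transcription in vitro. Time zero is uncertain, being fertilization in the time tag and the 2-cell stage in the growth protocol. The deposited counts do not pair transcript IDs with gene names. The results are therefore given for groups of transcripts and for 5 IDs, and no marker of a tissue could be checked.

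A newly laid animal egg carries RNA made by the mother, which directs the earliest divisions. The embryo then switches on its own genes and removes much of the maternal RNA. In tardigrades the early embryo is a solid group of dividing cells that begins to sort into layers. By the last part of embryonic life the animal has segments, clawed legs, muscle, a nervous system, a gut with a sucking pharynx and a cuticle, and lies folded in the egg shell before hatching. In whole embryos, fewer cells of a type and less RNA per cell cannot be told apart.

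The groups overlapped in depth, in RNA per spike-in and in the number of transcripts in use. Total transcript counts were 250397 to 4972036 in the early embryos (median 1651927) and 200536 to 2026191 in the late embryos (median 915069). Counts per spike-in count, from RNAs of known amount added to each tube, were 7.10 ± 3.36 early (SD, n = 8) and 6.76 ± 3.98 late (SD, n = 5), a difference of -0.05 in mean log10 (exact permutation test, 2-sided, p = 0.814). The ratio was lowest in embryo 11, at 1.05, and in embryo 24, at 1.10. When every embryo was thinned to 200536 counts, 7001 ± 447 transcripts were detected early (SD, n = 8) and 5715 ± 2011 late (SD, n = 5; exact permutation test, 2-sided, p = 0.155). The late values were 4270, 7921, 6899, 3021 and 6463 in embryos 20, 22, 23, 24 and 25. Embryos 20 and 24 were thus below every early embryo, of which the lowest had 6296, while embryo 22 was above every early embryo. Without embryos 20 and 24 the difference turned from -1286 to 93.1 (exact permutation test, p = 0.800).

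**Figure D1:**
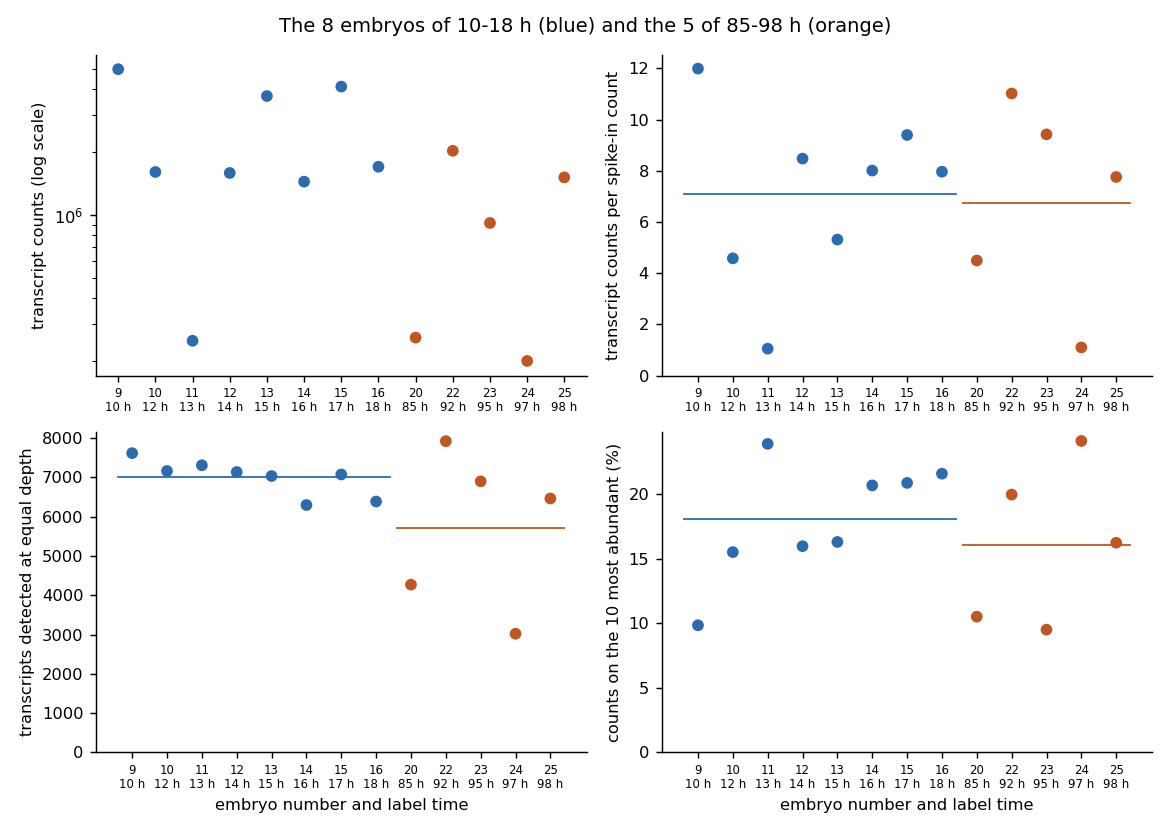
Total transcript counts (log axis), transcript counts per spike-in count, transcripts detected after thinning to 200536 counts, and percent of counts on the 10 most abundant transcripts, for each of the 13 embryos in order of label time. Lines in all but the total-count plot are group means. Embryos 20 and 24, with 4270 and 3021 transcripts, lie below all others in detected transcripts, and embryos 11 and 24 have the lowest counts per spike-in.

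A single transcript, HD_v1_tr_06538, held over 10% of the counts in 1 embryo of each group. Its share was 13.8% in embryo 11 and 10.4% in embryo 24, and between 0.957% and 2.63% in the other 11 embryos. Its count per spike-in count was much more even, from 0.0970 to 0.145 in the early and from 0.105 to 0.168 in the late embryos. It was named for the rule that asks for results with and without such embryos, and it did not pass the test between the groups (log2 change -0.18, edgeR's quasi-likelihood test, adjusted p = 0.855).

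Embryos of other runs at the same hours served as a check of the labels. These were 5 embryos of 10 to 18 h among embryos 90-98 and 13 embryos of 85 to 98 h among embryos 64-77, all past the same depth minimum. Across 12544 transcripts, each early embryo had a mean Spearman correlation of 0.784 to 0.831 with the other 10-18 h embryos and of 0.164 to 0.205 with the other 85-98 h embryos. Each late embryo had 0.393 to 0.620 with the other late embryos and 0.183 to 0.242 with the other early ones. Of these 2 age windows, each of the 13 embryos was more like the one of its own label time. Other windows were not compared. The late values were lowest in embryos 24 (0.393) and 20 (0.451), which also had the lowest depth of their group. The part of depth in this was not tested.

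Expression at 85 to 98 h differed widely from that at 10 to 18 h, in both directions. Of 12746 transcript models, 7637 passed the default filter on low counts, and 2462 of them (32.2%) differed between the groups (edgeR's quasi-likelihood test, Benjamini-Hochberg adjusted p under 0.05). Of these, 812 were higher late (10.6% of those tested) and 1650 were lower late (21.6%). The count of higher transcripts depended on the filter, which asked for 6.30 CPM (counts scaled to a common total of 1000000 per embryo) in at least 5 embryos and so kept a transcript absent from early embryos only if all 5 late embryos reached that level. Without the filter, 5019 of 12074 transcripts (41.6%) differed, 3098 higher late (25.7%) and 1921 lower (15.9%), so that higher transcripts were then the majority. Embryo 21 had 59.9% of its counts on HD_v1_tr_06538. With it added, in a test of 6750 transcripts, the counts were 384 higher and 1454 lower. Without embryos 20 and 24 they were 1613 higher and 1737 lower of 9240 tested. Without embryos 11 and 24, which had over 10% of counts on 1 transcript, they were 1052 higher and 1580 lower of 8217 tested. With fewer late embryos the filter asks for fewer embryos, so more transcripts were tested. The part of the filter in these counts was not tested.

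Scaling moved the split as well. The median log2 change of all tested transcripts was -0.95 with TMM factors, -1.24 with median-ratio (RLE) factors and -0.99 when scaled to the spike-ins. With RLE factors, 783 transcripts were higher and 2074 lower, and with spike-in scaling 700 and 1286. Other tools moved the number of lower transcripts more than the scaling did. In DESeq2 the split was 2097 to 3009. It was given 12074 transcripts without the filter and applied its own default filtering, so tool and filter cannot be told apart there. In limma on log2 CPM, with the filter and TMM factors of the main test, it was 857 to 3125. The log2 changes of HD_v1_tr_00206 and HD_v1_tr_04845 are therefore also given relative to the median of -0.95. For HD_v1_tr_08394 and HD_v1_tr_12400, with no counts early or late, a ratio to a floor is given instead. The change of -0.18 of HD_v1_tr_06538 lies above that median.

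**Figure D2:**
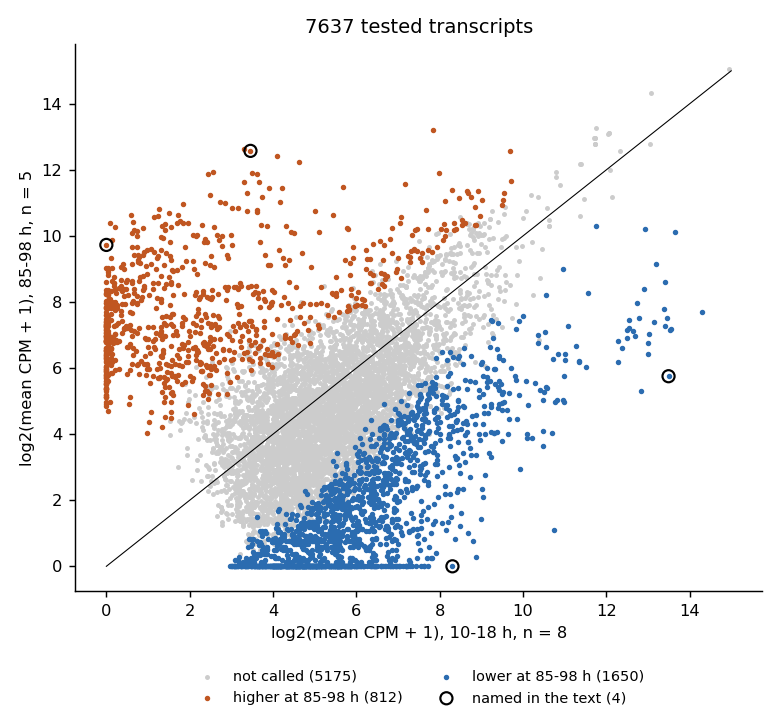
Mean CPM of each tested transcript at 10-18 h (horizontal axis, n = 8) and 85-98 h (vertical axis, n = 5), both as log2(CPM + 1), with the diagonal of equal level. Orange points are the 812 transcripts higher late, blue points the 1650 lower late and grey points the rest, and rings mark the 4 IDs described by value. Many orange points lie at the left edge and many blue points at the lower edge, at or near 0 in the other group.

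Most called transcripts changed by a large factor. This follows largely from the calling, since a change that is small against its standard error does not pass. The shares over 4-fold are therefore not read as a result. How many of all tested transcripts changed by such factors was not counted. Among the 629 higher transcripts with at least 4 counts pooled over the early group, 588 differed by over 4-fold, 473 by over 10-fold and 196 by over 100-fold. Among the 1049 lower transcripts with at least 4 counts pooled over the late group, 1041 differed by over 4-fold, 807 by over 10-fold and 33 by over 100-fold. The median log2 change was 5.02 in the former and -4.02 in the latter. With pooled CPM and counts under 3 set to 3, the median log2 ratio over all called transcripts was 6.61 for the 812 higher ones and, as early over late, 4.73 for the 1650 lower ones. The ranges of CPM in the groups did not overlap for 538 of the 812 higher transcripts, where 7.41% of all tested transcripts had all late embryos above all early ones. They did not overlap for 1044 of the 1650 lower ones, where 15.2% of all tested transcripts had all late embryos below all early ones. Calling favors transcripts whose ranges do not overlap, so these counts are not read as a result.

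Some transcripts were counted in every embryo of a group and in none of the other. No count in any early embryo and counts in all 5 late embryos were found for 126 transcripts, of which 106 passed the filter. The opposite, counts in all 8 early embryos and none in any late embryo, held for 341 transcripts, of which 299 passed. Since these transcripts were chosen for this pattern, their calls are not counted as a result. These counts move with depth, and at equal depth they were 235 and 244. Without embryos 20 and 24 they were 614 and 438. At the other extreme, 1077 transcripts were counted in all 13 embryos. Of these, 161 were higher late (14.9%) and 136 lower (12.6%), against 10.6% and 21.6% of all tested transcripts. This choice removes the 437 lower calls with 0 late counts and the 106 higher calls with 0 early counts. The difference between the shares therefore follows in part from the choice and is not read as a result.

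Transcripts with at least 10 CPM pooled over the late embryos and under 1 CPM pooled over the early ones numbered 1737, and only 313 of them had passed the filter. Their detection differed between late embryos, with 1654 counted in embryo 22, 1388 in embryo 23, 1354 in embryo 25, 857 in embryo 20 and 549 in embryo 24. Of the 1737, 326 were counted in all 5 late embryos and 96 in a single one. In the other runs, which share no embryo with the 13, 1038 of the 1424 that the filter had removed were tested. Of these, 908 were higher and 0 lower at 85-98 h, where 27.2% of all transcripts tested were higher and 16.0% lower. A transcript absent early can pass the filter there only through late embryos, so a lower call was hardly open to it. The shares over all transcripts are therefore no fair measure for this set, and the rest of the 1424 were not tested there. The reverse set, at least 10 CPM early and under 1 CPM late, held 769 transcripts, with 653 to 746 of them counted in each early embryo.

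Among transcripts counted in all 13 embryos, HD_v1_tr_00206 showed the largest rise. It was at 0.693 to 39.9 CPM in the early embryos, with a median of 3.34. In embryos 20, 22, 23, 24 and 25 it was at 7882, 7585, 7905, 4792 and 2376 CPM. Every late embryo was far above every early one, and the level was lowest in embryo 25, of 98 h. The means were 10.0 ± 13.5 CPM (SD, n = 8) and 6108 ± 2461 CPM (SD, n = 5), a log2 change of 9.52 (SE 0.96, 10.47 relative to the median, edgeR adjusted p = 5.64e-07). Embryos of the other runs had 0.897 ± 2.01 CPM at 10-18 h (SD, n = 5), 228 ± 636 CPM at 70-79 h (SD, n = 9), where 1 embryo had 1923 CPM and the median was 0.908, and 5849 ± 1749 CPM at 85-98 h (SD, n = 13).

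HD_v1_tr_08394 had the highest late level among called transcripts with no early count. It had 0 counts in all 8 early embryos and 1832, 311, 264, 1566 and 267 CPM in embryos 20, 22, 23, 24 and 25. The level was high in embryos 20 and 24, the embryos with the fewest detected transcripts, and about equal in the other late embryos. The pooled late level of 420 CPM was at least 2713-fold higher than a floor of 3 counts over the early group (edgeR adjusted p = 1.39e-06). Embryos 17 and 21, which are too young or too shallow for the late group, had 0 counts of it. Low counts were present before the early group, at 1.50 ± 1.74 CPM (SD, n = 8) in embryos 1-8. At 10-18 h, 5 of embryos 90-98 had 1.62 ± 2.99 CPM (SD, n = 5), from 3 counts in 2 embryos. The transcript was thus not absent from all embryos of those hours. Its log2 change in the other runs was 8.37 (edgeR adjusted p = 1.33e-07), where age and run cannot be told apart. Later embryos of the other runs had 89.6 ± 75.7 CPM at 47-56 h (SD, n = 10), 461 ± 310 CPM at 57-69 h (SD, n = 7) and 628 ± 375 CPM at 85-98 h (SD, n = 13).

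The transcripts named for their fall were lowest in the youngest embryos of the early group. HD_v1_tr_04845, the largest fall among transcripts counted in all 13 embryos, was at 117, 1653, 2093, 7151, 16034, 21910, 26159 and 17252 CPM in embryos 9 to 16, in order of age from 10 to 18 h. Among the early embryos alone it increased by 0.98 on the log2 scale per hour (edgeR adjusted p = 0.00698). In the late embryos it was at 73.3, 31.6, 71.0, 15.0 and 74.1 CPM in embryos 20, 22, 23, 24 and 25, all below the lowest early embryo. The mean early level was 11546 ± 10077 CPM (SD, n = 8) and the late one 53.0 ± 27.8 CPM (SD, n = 5), a log2 change of -7.99 (SE 1.26, -7.04 relative to the median, edgeR adjusted p = 5.82e-05). In embryos 64-77 of the same late hours it was lower still, at 0.760 ± 2.17 CPM (SD, n = 13), with counts in 2 of 13 embryos. Embryo 17, of 80 h and in the same run as the 13, had 738 CPM from 67 counts, and 51.3% of its counts were on HD_v1_tr_06538. Whether reads assigned to the wrong embryo of a run add to low levels such as these, and so to the transcripts counted in all 13 embryos, was not tested.

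HD_v1_tr_12400 had the highest early level among called transcripts with no late count. It was at 4.63, 5.61 and 20.0 CPM in the embryos of 10, 12 and 13 h, and at 332, 694, 550, 590 and 331 CPM from 14 to 18 h. It had 0 counts in all 5 late embryos, and also in the 13 embryos of the same late hours in embryos 64-77. The pooled early level of 357 CPM was at least 584-fold higher than a floor of 3 counts over the late group (edgeR adjusted p = 0.000357). Embryos of the other runs had 262 ± 324 CPM at 10-18 h (SD, n = 5), 136 ± 74.7 CPM at 40-46 h (SD, n = 7) and 0 counts in all 10 embryos of 47-56 h. It was counted again in 1 of 7 embryos of 57-69 h, 1 of 9 of 70-79 h and 1 of 2 of 80-84 h, with 37, 37 and 16 counts. Embryos up to 46 h and from 47 h on belong to different runs, and in that step age and run cannot be told apart.

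**Figure D3:**
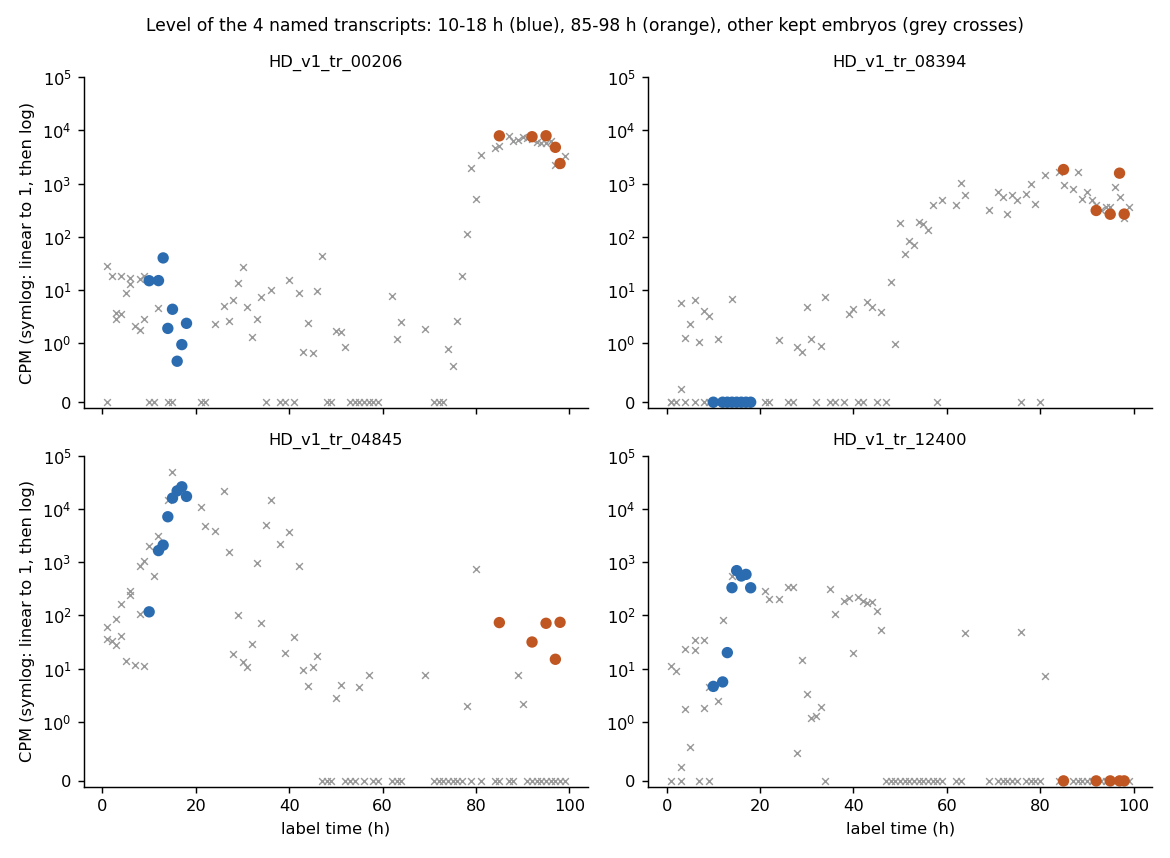
CPM of the 4 named transcripts in every embryo past the depth minimum with a time in hours, against label time. The vertical axis is linear up to 1 CPM and logarithmic above. Blue points are the 8 early embryos, orange points the 5 late embryos and grey crosses all other embryos, which belong to other hours or other runs. HD_v1_tr_04845 lies between 117 and 26159 CPM in the early group, and HD_v1_tr_00206 reaches 2376 to 7905 CPM in the late group.

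The same contrast was made in embryos that share none with the 13, with embryos 64-77 (n = 13) set against embryos 90-98 (n = 5). There the late embryos belong to another run than the early ones, so age and run cannot be told apart. Of 8152 transcripts, 3518 differed (43.2%), 2217 higher late (27.2%) and 1301 lower (16.0%). Of 6502 transcripts tested in both sets, 2089 were called in embryos 1-25 and 2303 in the other embryos. The 1559 called in both all had the same direction. They were 722 higher transcripts, 91.5% of the 789 called in embryos 1-25 and 70.7% of the 1021 called in the others, and 837 lower ones, 64.4% of 1300 and 65.3% of 1282. The log2 changes had a Pearson correlation of 0.856 across the 6502 transcripts, a description, since transcripts of the same embryos do not vary independently. The change itself differed between the sets for 306 of 12544 transcripts (2.44%) in edgeR's test of the difference. HD_v1_tr_06538 was 1 of them, with a log2 change of -0.18 within embryos 1-25 and 6.78 in the other embryos (edgeR adjusted p of the difference = 1.96e-09). At the same hours its level differed by run. At 10-18 h it was at 11345 to 138181 CPM in embryos 9-16 (median 14679) and at 224 to 439 CPM in the 5 of embryos 90-98, and at 1-9 h at 8732 to 18825 CPM in embryos 1-8 and at 209 to 657 CPM in 9 of embryos 79-89. All groups of embryos 79-126 had means of 324 to 538 CPM, up to 46 h of age.

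The lists called in the other embryos were then read in the 13 embryos, which had no part in choosing them. Transcripts higher late in embryos 64-77, with HD_v1_tr_06538 left out, held 8.51% to 16.0% of the counts in the early embryos, with a median of 11.6%. In embryos 20, 22, 23, 24 and 25 they held 61.1%, 69.2%, 62.2%, 61.5% and 57.9%. Most of the counts of each late embryo were therefore on transcripts that held a small part of the early RNA, and the groups did not overlap. Transcripts lower late in embryos 64-77 held 30.4% to 60.5% in the early embryos, with a median of 51.8%, and 3.26% to 4.74% in the late ones. Within the early group this share was 34.1% at 10 h and 60.5% at 16 h. Embryo 11 set the early ends of both ranges. Without embryos 11 and 24, the higher list held 8.51% to 14.9% early and 57.9% to 69.2% late, and the lower list 34.1% to 60.5% early and 3.26% to 4.74% late. With HD_v1_tr_06538 included, the share of the higher list in embryo 11 was 29.8% in place of 16.0%.

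**Figure D4:**
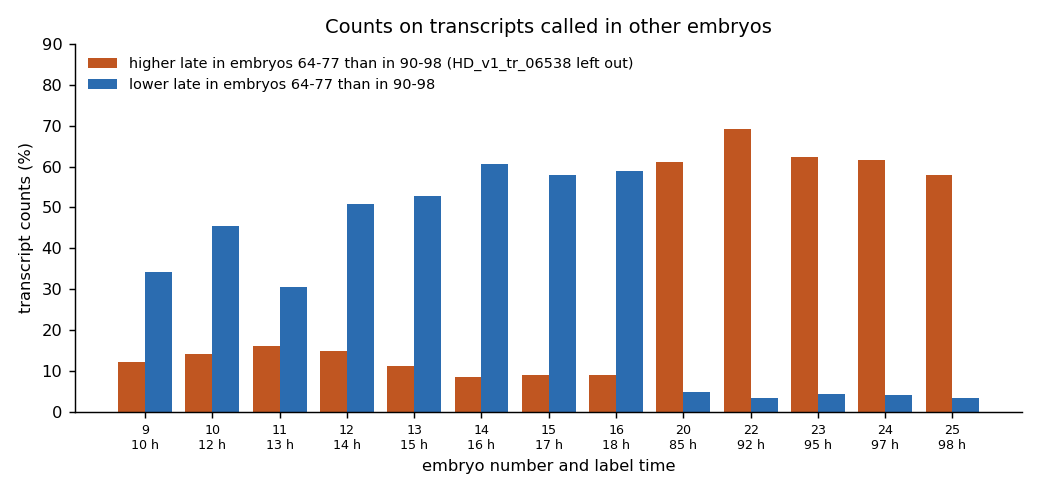
Percent of transcript counts in each of the 13 embryos that fell on transcripts called higher late (orange bars, HD_v1_tr_06538 left out) or lower late (blue bars) in other embryos of the same hours. Orange bars are at most 16.0% in the early and at least 57.9% in the late embryos, and blue bars are at least 30.4% and at most 4.74%.

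The levels of the 812 higher and 1650 lower transcripts were followed through the hours between the groups, in other embryos. On the log2 CPM scale used here, a transcript with no counts reads 0.88. The median over the 812 higher transcripts of the mean log2 CPM was 1.65 in the early group, near that floor, and 7.08 in the late group. In the other runs it was 1.47 for 19-29 h, 1.88 for 30-39 h, 2.13 for 40-46 h, 3.21 for 47-56 h, 3.62 for 57-69 h, 4.41 for 70-79 h and 6.90 for 85-98 h. At 70-79 h, 343 of the 812 were nearer to the late than to the early level, against 740 in the embryos of 85-98 h, with 708 in 2 embryos of 80-84 h (median 7.31). Embryo 17, of 80 h and in the same run as the 13, had 233 nearer to the late level. Its median was 0.88, the value of no counts, at 90771 counts with 51.3% of them on HD_v1_tr_06538. With 1 and 2 embryos, these values have no usable spread. The median over the 1650 lower transcripts was 5.73 early and, near the floor of 0.88, 1.44 late. It was 5.79 for 19-29 h, 5.67 for 30-39 h, 4.80 for 40-46 h, 2.53 for 47-56 h, 1.88 for 57-69 h and 1.94 for 70-79 h. By 47-56 h, 1230 of the 1650 were nearer to the late level, against 366 at 40-46 h. Between these windows lies the change of run at 46 to 47 h, where age and run cannot be told apart. These are descriptions of lists chosen in the 13 embryos and carry no test.

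**Figure D5:**
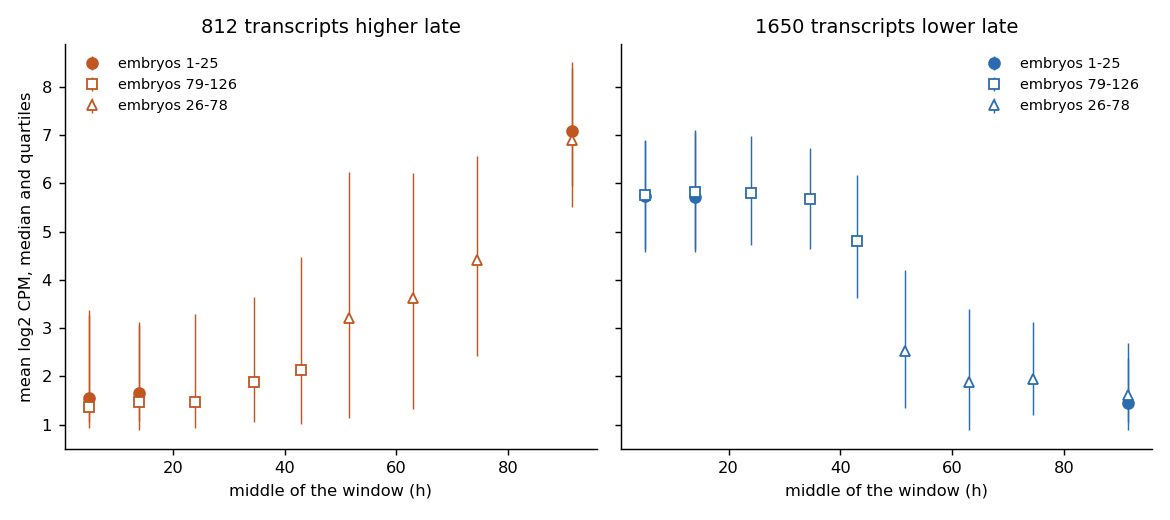
Median and quartiles, over the 812 transcripts higher late (left) and the 1650 lower late (right), of the mean log2 CPM in each group of at least 5 embryos, against the middle of the group's hours. Filled circles are embryos 1-25, squares embryos 79-126 and triangles embryos 26-78. The median of the higher transcripts is 4.41 at 70-79 h and 7.08 in the late group, and that of the lower ones is already 2.53 at 47-56 h.

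Embryos also differed within each group. Among the 8 early embryos, 248 of 3491 transcripts (7.10%) changed with the hour, 114 rising and 134 falling from 10 to 18 h (edgeR's quasi-likelihood test of a linear term). The median slopes were 0.47 and -0.47 on the log2 scale per hour. The count rested on single embryos, with 78 transcripts without embryo 15, 136 without embryo 9, 151 without embryo 14 and 157 without embryo 16. Among the 5 late embryos, 0 of 1300 transcripts (0.00%) changed with the hour in edgeR's test, with 119 at an unadjusted p under 0.05, and 5 were called without embryo 23 and 2 without embryo 24.

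The early RNA also became concentrated on fewer transcripts over these hours, a relation looked at after the values were seen. The 10 most abundant transcripts other than HD_v1_tr_06538 held 9.30%, 14.2%, 12.3%, 15.7%, 15.1%, 20.9%, 21.1% and 21.9% of counts in embryos 9 to 16, in order of age. The share was related to the hour across the 8 embryos (Pearson r = 0.945, exact permutation p = 0.00109, adjusted 0.00327; Spearman rho = 0.952, exact permutation p = 0.00114, adjusted 0.00342), and r stayed at 0.877 when the 2 embryos farthest in age from the median hour were left out. Transcripts detected at equal depth went the other way, from 7616 at 10 h to 6385 at 18 h (Pearson r = -0.803, exact permutation p = 0.0139, adjusted 0.0209; Spearman rho = -0.857, exact permutation p = 0.0107, adjusted 0.0161), but r was -0.534 without those 2 embryos, so this relation rests on them. With HD_v1_tr_06538 included, the share of the 10 most abundant did not pass the threshold (r = 0.688, exact permutation p = 0.0626, adjusted 0.0626; rho = 0.643, exact permutation p = 0.0962, adjusted 0.0962). Adjustment was over these 3 relations. Between the groups that share was 18.1% ± 4.51 early (SD, n = 8) and 16.1% ± 6.20 late (SD, n = 5; exact permutation test, 2-sided, p = 0.496).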

How the data were processed

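Whole, unscaled counts of reads were deposited for each transcript model. The submitters' processing notes list HTSeq 0.5.4p3, Bowtie2 2.1.0 and CASAVA 1.8, with no roles. For the genome build and annotation, the sources used here give no name. Each deposited count table holds 12746 transcript models, 92 ERCC spike-ins and 5 summary rows. Spike-ins and summary rows stayed out of library sizes and tests. Unaligned reads took 34.7% to 58.0% of all reads in the 13 embryos, and reads outside transcript models 3.97% to 11.0%. Reads were not collapsed by molecular identifiers as far as the labels tell, and floors cover counting error only. A transcript with 100 counts has a counting error of 10.0%.

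The groups were compared with edgeR 4.0.16 (R 4.3.3), with TMM factors, the default filter and the quasi-likelihood test, fitted on the 13 embryos alone, with Benjamini-Hochberg adjustment over all transcripts tested. CPM are counts divided by the embryo's transcript total, times 1000000. The SE of a log2 change is its size divided by the root of the F statistic. TMM factors were 0.761 to 1.38 early and 0.689 to 1.61 late. Single measures were tested by exact 2-sided permutation. Thinning drew counts without replacement. Alternatives used limma 3.58.1 and DESeq2 1.42.0, and tables and plots were made in Python 3.11.15 with scipy 1.17.1, pandas 2.3.3, matplotlib 3.10.9 and numpy 2.4.6.

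Named IDs were the largest rise and fall among called transcripts counted in every embryo, and the most abundant ones late or early with no count in the other group. The groups, members and lists were chosen with earlier results of these data known. The test of the difference between sets used 1 fit over all groups. Alternatives were other factors, tools, filters and depth limits, spike-in scaling, thinning and leaving out embryos. Leaving out embryos 20 and 24 or HD_v1_tr_06538 was chosen after seeing the data, as were the tests by hour without single embryos. The embryo numbers pair no samples.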

Additional observations from a re-analysis of the deposited data

Results flagged for a closer look

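Of 28 sets of 5 or 8 values checked for a value far from the rest, 6 had one. Chance gives about 1 in 20 for independent sets. These sets share embryos, embryo 11 among them, and some share the counts of HD_v1_tr_06538, so no excess over chance can be read from the 6. HD_v1_tr_06538 held 13.8% of counts in embryo 11, against 1.13% to 2.63% in the other early embryos. It held 10.4% in embryo 24, against 0.957% to 2.37% in the other late embryos. Its count per spike-in count was 0.168 in embryo 25, against 0.105 to 0.115 in the other late embryos. Reads outside transcript models took 3.97% of all reads in embryo 11, against 7.82% to 9.46% in the other early embryos. HD_v1_tr_00206 was at 39.9 CPM in embryo 11, from 10 counts, against 0.693 to 15.0 CPM in the other early embryos. Transcripts higher late in the other runs held 29.8% of counts in embryo 11, against 9.72% to 16.5%. With HD_v1_tr_06538 left out of that list, embryo 11 had 16.0%.

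The change from 10-18 to 85-98 h differed between embryos 1-25 and the other embryos for 306 of 12544 transcripts, in edgeR's test of the difference. It was larger, or less negative, in embryos 1-25 for 263 and smaller for 43, and 1679 had an unadjusted p under 0.05. The other set takes its groups from different runs, so a difference between runs and a difference in the change with age cannot be told apart.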

How the results depend on the processing

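Of 278 alternative values, 248 kept their direction and side of the threshold or, for counts, stayed within 1.5 times. Among the 278 are 26 values for HD_v1_tr_08394 and 28 for each of HD_v1_tr_00206, HD_v1_tr_04845 and HD_v1_tr_12400, all of which stayed. These IDs were chosen in the same data for their changes, so their part of the 248 was nearly fixed in advance. A depth minimum of 20% of the median removed no embryo. Without a minimum, embryo 21 came in, with 59.9% of its counts on HD_v1_tr_06538, and 384 of 6750 tested transcripts were higher. The main test called 2462 of 7637 transcripts (812 higher, 1650 lower), and limma called 3982 of 7637 (3125 lower). More transcripts entered DESeq2, which applied its own filtering and called 5106 of 12074 (2097 higher, 3009 lower). More also entered the test without the filter, with 5019 of 12074 called (3098 higher). The same holds for 1 fit over all groups, with 5799 of 12544 (3240 higher, 2559 lower). Thinning left 3277 transcripts to test and called 1401 (834 lower). A late group widened to 80 h, which added embryo 17, gave 484 higher of 6839 tested, and dropping embryos 20 and 24 gave 1613 of 9240. None of the main calls that were tested in any of these turned its direction. The 4 named IDs passed in every alternative that tested them, 26 for HD_v1_tr_08394, which the filter removed when embryo 17 or 21, both with 0 counts of it, was added, and 28 for each other.

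Leaving out 1 embryo gave 2114 to 2918 called, 692 to 1123 higher and 1383 to 2166 lower, in tests of 7223 to 8363 transcripts. The difference in mean log10 total counts, -0.43 (exact permutation p = 0.112), ranged from -0.55 to -0.29 and passed without embryo 11 (-0.55, exact permutation p = 0.0303). That in detected transcripts ranged from -1838 to -613 and passed without embryo 22 (-1838, exact permutation p = 0.0283), and it was 93.1 without embryos 20 and 24. That in the share of the 10 most abundant ranged from -4.02 to -0.37. That in log10 counts per spike-in ranged from -0.16 to 0.12, was 0.0081 without embryos 11 and 24, 0.12 without embryo 24 and 0.19 without embryos 20 and 24. Transcripts present in all late and no early embryos numbered 126, against 235 at equal depth and 614 without embryos 20 and 24. Calls by hour ranged from 78 to 228 early and 0 to 5 late, with 2 late without embryo 24. No paired analysis was possible because each embryo is a different animal and no number is shared between groups.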

Other observations

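Abundant transcripts were less completely absent from the opposite group in embryos 1-25 than in the other runs, a description chosen after the values were seen and carrying no test. Among 58 transcripts lower late in both sets with at least 1000 CPM pooled early in both, the pooled late level was a median of 1.59% of the early level in embryos 1-25 and 0.513% in the other embryos. The percentage was higher in embryos 1-25 for 48 of the 58. None of the 58 was at 0 in the late embryos 20 and 22-25, and 10 were at 0 in embryos 64-77. Among 73 transcripts higher late in both sets with at least 1000 CPM pooled late in both, HD_v1_tr_06538 left out, the pooled early level was a median of 0.351% of the late level in embryos 1-25 and 0.173% in the others, and higher in embryos 1-25 for 57. None of the 73 was at 0 in embryos 9-16, and 17 were at 0 in embryos 90-98, which had lower totals. Whether reads assigned to the wrong embryo of a run contribute to these remaining levels was not tested.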
